A study of Mus musculus with 32 samples.

Results

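The genes described here are 10 CC chemokines, Ccl2, Ccl3, Ccl4, Ccl5, Ccl6, Ccl7, Ccl8, Ccl9, Ccl12 and Ccl24, taken by symbol from the 17586 genes of the authors' table. They were followed across 32 RNA-seq libraries of cells sorted from mouse brain, 8 for each of 4 populations: microglia of normal brain, microglia of tumours, and the macrophages of tumours that the labels call differentiated and undifferentiated. The tumour populations came from chimeric mice with GL-261 tumours in the brain (GL-261 is a glioma line of the mouse), and the labels give each as Pep3 into WT or as WT into Pep3. Each held 4 libraries of WT recipients (C57BL/6J, CD45.2) and 4 of Pep3 recipients (CD45.1). Normal microglia came from 4 WT and 4 Pep3 libraries of mice with no graft and no tumour. The sources used here name no treatment in any group, and give no ages, sorting gates or way of making the chimeras. Whether the chimeras were conditioned before grafting is therefore unknown. Whether each library is a separate mouse is not stated either, and the p-values below therefore measure the spread between libraries, which may in part be technical.

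CC chemokines are small secreted proteins that bind G protein-coupled receptors on leukocytes and guide their migration. Ligands of Ccr2 such as Ccl2 draw monocytes out of the blood into tissue, ligands of Ccr1 act on macrophages and T cells, and the eotaxins act on eosinophils through Ccr3. In the brain, microglia, the resident macrophages, and incoming blood-derived macrophages are both known sources of these proteins.

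The deposited values are signed scores with a mean of 0 for every gene over the 32 libraries, so a score says whether a gene was above or below its own average and not how abundant it was. Differences are in units of that score with ± 1 standard error, for 8 libraries against 8, and come from limma, a linear model fitted to all genes, with Benjamini-Hochberg adjustment. A gene was called higher or lower at an adjusted p below 0.05. Sequencing depth is unknown. In sorted bulk samples, fewer cells of a type and less RNA per cell cannot be told apart.

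The labelled populations were checked against marker genes. All 10 microglia markers were lower in each macrophage population than in tumour microglia, and of 12 blood-derived macrophage markers 10 were higher in differentiated and 12 in undifferentiated macrophages. In tumour against normal microglia 2 of the 10 microglia markers were lower and 3 of the 12 blood-derived macrophage markers higher, and 0 went the other way. Over all genes 12% were lower and 4.66% higher there. Their bearing on the chemokine scores of tumour microglia was not tested. Of 10 T and NK cell markers only 2 were in the table, and no Cd3 gene was. Both were higher in each macrophage population than in tumour microglia, Cd8a by 2.08 (differentiated) and 1.91 (undifferentiated) and Klrb1c by 2.39 and 2.34. Their mean score ran from -2.77 to -0.32 in tumour microglia, from 0.068 to 2.05 in differentiated and from -0.051 to 1.70 in undifferentiated macrophages. Markers of other cells that were called higher than in tumour microglia, in differentiated and then undifferentiated macrophages, were 4 and 3 of 5 endothelial, 3 and 2 of 4 dendritic cell, 3 and 3 of 4 neuron, 3 and 3 of 6 glioma and astrocyte, 2 and 1 of 3 neutrophil and 1 and 1 of 4 oligodendrocyte markers. In both, Csf3r of the neutrophil and Slc1a3 of the astrocyte list were lower. Over all genes 37% and 36.7% were called higher in these comparisons. Against normal microglia the counts were 2 and 3 endothelial, 3 and 3 dendritic cell and 1 and 0 neuron markers. Glioma and astrocyte markers gave 4 and 2, and neutrophil, oligodendrocyte and T and NK cell markers 1 and 1 each. The shares of all genes there were 24.7% and 21.8%. In tumour against normal microglia 2 neuron and 1 T and NK cell marker were lower, and 1 dendritic cell and 1 glioma and astrocyte marker higher. The part of such cells in the chemokine differences was not tested. The 9 libraries numbered 1, 10, 18 and 26 (normal microglia), 27 (tumour microglia), 28 and 31 (differentiated) and 8 and 29 (undifferentiated macrophages) kept under 50% of their own variation in the deposited table. Per the labels, normal microglia were experiments 1 and 2 and tumour populations experiments 3 and 4, so tumour, graft and experiment cannot be told apart in any comparison with normal microglia.

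Of these genes 9 lie in a chemokine cluster on chromosome 11. By the RefSeq gene order, Ccl2, Ccl7, Ccl12 and Ccl8 form 1 run, broken only by Ccl11 between Ccl7 and Ccl12, and Ccl5, Ccl9, Ccl6, Ccl3 and Ccl4 form another, while Ccl24 is on chromosome 5. The RefSeq promoter table (GRCm38.p6) matched 5 of the 10, namely Ccl8, Ccl12, Ccl3, Ccl6 and Ccl9; Ccl2, Ccl7, Ccl4, Ccl5 and Ccl24 had no match. The 250 bases before the annotated start are printed for neighbouring pairs, 5′ to 3′ on the gene's strand. The first pair, Ccl12 and Ccl8, differed in opposite directions between differentiated macrophages and tumour microglia. The second pair, Ccl9 and Ccl6, varied together across libraries. Capitals mark every match to the motifs searched. Ccl12 is chr11:82101595-82101844 (plus strand), Ccl8 is chr11:82114935-82115184 (plus strand), Ccl9 is chr11:83578637-83578886 (minus strand) and Ccl6 is chr11:83593088-83593337 (minus strand).
Ccl12: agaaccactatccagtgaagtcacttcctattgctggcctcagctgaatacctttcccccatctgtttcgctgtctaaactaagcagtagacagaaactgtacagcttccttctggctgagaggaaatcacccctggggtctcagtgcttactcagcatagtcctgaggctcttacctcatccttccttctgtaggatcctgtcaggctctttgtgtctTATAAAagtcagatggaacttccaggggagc
Ccl8: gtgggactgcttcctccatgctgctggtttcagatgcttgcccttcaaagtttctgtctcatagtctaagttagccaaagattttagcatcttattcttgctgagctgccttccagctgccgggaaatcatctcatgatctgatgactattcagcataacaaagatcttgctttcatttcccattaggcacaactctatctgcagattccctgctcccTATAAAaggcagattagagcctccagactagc
Ccl9: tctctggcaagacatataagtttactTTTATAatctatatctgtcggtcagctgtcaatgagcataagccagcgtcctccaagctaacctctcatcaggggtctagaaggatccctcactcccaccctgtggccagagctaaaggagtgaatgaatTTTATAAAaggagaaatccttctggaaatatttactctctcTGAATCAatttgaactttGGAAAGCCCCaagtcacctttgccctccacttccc
Ccl6: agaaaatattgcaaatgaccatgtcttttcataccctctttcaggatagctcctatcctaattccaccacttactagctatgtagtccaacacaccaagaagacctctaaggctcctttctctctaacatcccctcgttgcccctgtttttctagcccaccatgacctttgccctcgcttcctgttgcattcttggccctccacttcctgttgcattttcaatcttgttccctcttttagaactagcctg
Both strands were searched for the TATA box TATAAA, the interferon-stimulated response element core GAAANNGAA, the gamma-activated sequence TTCNNNGAA, the AP-1 site TGANTCA, the PU.1 site GAGGAAGT and the NF-kappaB consensus. Ccl12 and Ccl8 each held 1 TATA box, from -31 to -26 and from -32 to -27 relative to the start, and no other motif. Ccl9 held an NF-kappaB match from -35 to -26, an AP-1 match from -53 to -47 and 3 TATA matches, at -224, -94 and -92, the last pair overlapping. Ccl6 held none of the 6. In the Ccl3 promoter, which is not printed, the interferon core matched on the minus strand from -39 to -31. Of 32851 promoters of this length, 12.4% held the TATA box, 7.25% the NF-kappaB consensus, 7.13% the interferon core, 7.02% the gamma-activated sequence, 6.75% the AP-1 site and 2.44% the PU.1 site. Aligned end to end, the Ccl8 and Ccl12 promoters were identical over 55.6% of the alignment length, gaps included, the highest of the 10 pairs of printed or searched promoters, and Ccl6 and Ccl9 over 47.2%. The lowest pair, Ccl12 and Ccl3, stood at 43.7%. These matches describe letters in a window and show no binding.

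Tumour against normal microglia asked how resident microglia of tumour-bearing chimeras compare with those of mice without a tumour. Of the 10 chemokines 5 rose in tumour microglia, Ccl2, Ccl7, Ccl12, Ccl4 and Ccl5, none fell and 5 did not pass. Across all genes 4.66% were called higher and 12% lower. The median difference was 2.46 over the 10 chemokines and -0.25 over all genes. The 3 called Ccr2 ligands and Ccl4 and Ccl5 had differences of 2.66 to 4.40.

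**Figure D1:**
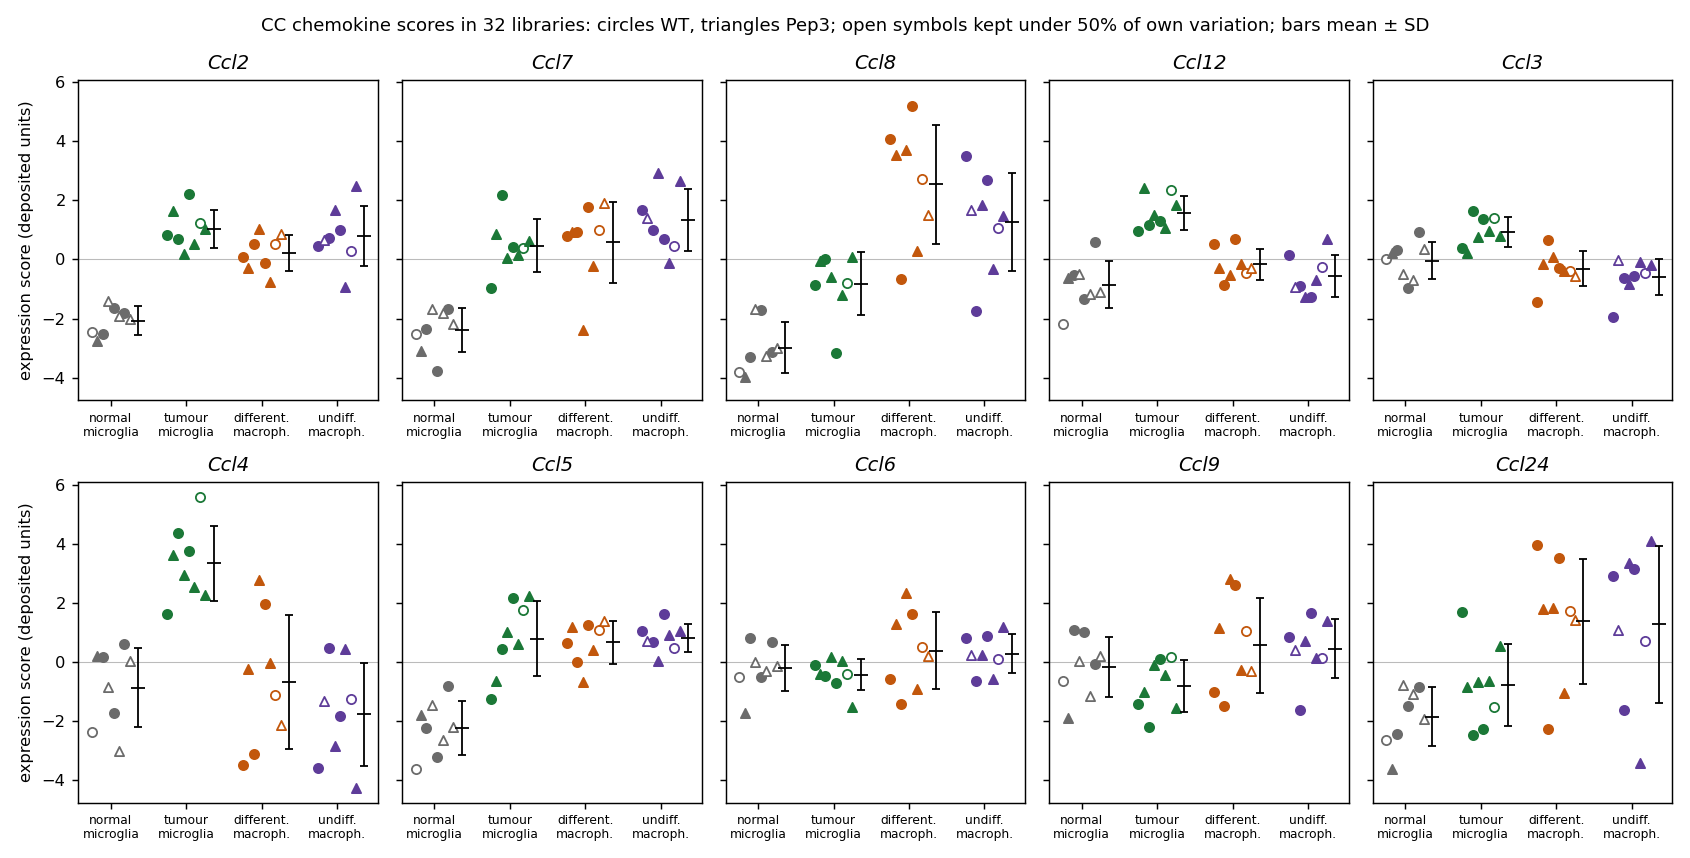
Scores of the 10 CC chemokines (y axis, deposited units) in each of the 32 libraries, by population (x axis); circles are WT and triangles Pep3 mice, open symbols are the 9 libraries that kept under 50% of their own variation, and bars are the mean ± SD of 8 libraries. Ccl2, Ccl7, Ccl8, Ccl12, Ccl5 and Ccl24 have their lowest mean in normal microglia. Ccl2, Ccl12, Ccl3 and Ccl4 have their highest in tumour microglia, and Ccl8 and Ccl24 are spread widely in both macrophage populations.

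Ccl2, the main monocyte chemoattractant of this family, scored from -2.76 to -1.39 in normal microglia, with a median of -1.96. In tumour microglia it ran from 0.20 to 2.21 with a median of 0.94, and the 2 groups did not overlap. The fitted rise was 3.20 ± 0.43 (limma adjusted p = 8.4e-05). Both macrophage populations were also above every normal library: Ccl2 ran from -0.78 to 1.02 (median 0.31) in differentiated and from -0.95 to 2.47 (median 0.69) in undifferentiated macrophages. By mean score tumour microglia stood first, then undifferentiated, then differentiated macrophages, and no adjacent pair of these 3 passed the test. Only the step down to normal microglia did, at 2.18 ± 0.43 from differentiated macrophages (adjusted p = 0.00083). Undifferentiated macrophages exceeded normal microglia by 3.23 ± 0.46 (adjusted p = 3.4e-05). Population accounted for 77.5% of the variance of Ccl2, the largest share among the 10, against a median of 36.9% over all genes.

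Ccl7, a Ccr2 ligand whose gene lies next to Ccl2, was likewise lowest in normal microglia. Its normal microglia scores ran from -3.77 to -1.66 (median -2.27), and those of tumour microglia from -0.98 to 2.19 (median 0.41), with no overlap and a rise of 2.90 ± 0.56 (limma adjusted p = 0.0018). Differentiated macrophages ran from -2.40 to 1.91 (median 0.93), where library 15 at -2.40 was the only one of the 8 to reach into the normal range. Undifferentiated macrophages ran from -0.14 to 2.94 (median 1.20) and lay wholly above normal microglia. Their differences from normal microglia were 2.80 ± 0.56 (adjusted p = 0.001) and 4.14 ± 0.60 (adjusted p = 4.4e-05). The 3 tumour populations did not differ from one another by the test.

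Ccl12, the mouse chemokine closest to Ccl2 in its action on Ccr2, had another pattern. It was high in tumour microglia alone, from 0.96 to 2.42 with a median of 1.40, while normal microglia ran from -2.17 to 0.60 (median -0.86). Differentiated macrophages ran from -0.85 to 0.70 (median -0.29) and undifferentiated macrophages from -1.28 to 0.70 (median -0.80). Every tumour microglia library therefore lay above every library of the other 3 populations. Ccl12 rose by 2.66 ± 0.38 against normal microglia (limma adjusted p = 0.00017). Both macrophage populations were lower than tumour microglia, with differences of -1.89 ± 0.39 for differentiated (adjusted p = 0.00057) and -2.55 ± 0.41 for undifferentiated macrophages (adjusted p = 8.1e-05). The macrophage populations did not pass against normal microglia, at 0.77 ± 0.38 (adjusted p = 0.12) and 0.10 ± 0.40 (adjusted p = 0.86).

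Ccl4, a macrophage inflammatory protein, gave the largest differences, in size, of the 10 in the comparisons with tumour microglia. Its tumour microglia scores ran from 1.63 to 5.59 with a median of 3.27, and normal microglia from -3.01 to 0.62 (median -0.41), again without overlap. The rise was 4.40 ± 0.94 (limma adjusted p = 0.0037). Differentiated macrophages were spread from -3.49 to 2.75 (median -0.68), so that their upper libraries reached into the tumour microglia range, and undifferentiated macrophages ran from -4.27 to 0.47 (median -1.59) with no overlap. Against tumour microglia they stood at -3.94 ± 0.97 (adjusted p = 0.0028) and -5.72 ± 1.02 (adjusted p = 0.00025). Neither macrophage population passed against normal microglia, with intervals (95%) of -1.50 to 2.43 and -3.41 to 0.78.

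Ccl3, the neighbour of Ccl4 and a ligand of Ccr1, moved over a smaller range. It ran from 0.21 to 1.63 (median 0.87) in tumour microglia and from -0.96 to 0.94 (median 0.12) in normal microglia, and the difference of 0.97 ± 0.38 did not pass (limma adjusted p = 0.077). Differentiated macrophages ran from -1.45 to 0.66 (median -0.34) and undifferentiated macrophages from -1.95 to -0.024 (median -0.51). Both were lower than tumour microglia, with differences of -1.19 ± 0.39 (adjusted p = 0.017, overlapping) and -1.61 ± 0.41 (adjusted p = 0.0032, not overlapping). Against normal microglia neither passed.

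Ccl5, which attracts T cells and macrophages through receptors that include Ccr1 and Ccr3, was also lowest in normal microglia. Normal microglia ran from -3.63 to -0.82 (median -2.22). Tumour microglia ran from -1.25 to 2.22 (median 0.81), and their lowest library, number 3, fell within the normal range. The rise was 3.16 ± 0.53 (limma adjusted p = 0.00063). Differentiated macrophages, from -0.68 to 1.39 (median 0.86), and undifferentiated macrophages, from 0.031 to 1.63 (median 0.80), lay wholly above normal microglia. They differed from it by 2.88 ± 0.54 (adjusted p = 5e-04) and 3.25 ± 0.57 (adjusted p = 0.00034). The mean scores of the 3 tumour populations, 0.66 to 0.81, lay within the spread of any of them.

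The calls of tumour against normal microglia leaned on the normal libraries. Without normal microglia library 1, which kept 33.1% of its own variation, only 1 chemokine was called, Ccl2. That fit called 171 genes in all, against 820 higher and 2116 lower with all libraries, and 6 of the 10 chemokines still had an unadjusted p below 0.05. Without it the adjusted p was 0.08 for Ccl7, 0.074 for Ccl12, 0.18 for Ccl4 and 0.16 for Ccl5, while their differences stayed between 1.92 and 3.96. Ccl4 also missed the threshold without normal library 10 (adjusted p = 0.08), normal library 18 (0.12, at a difference of 2.57) or tumour microglia library 27 (0.08). Set aside together, the 9 weakly kept libraries left Ccl2 and Ccl7 called in a fit without the covariates for the removed directions (adjusted p = 0.0027 and 0.025), and Ccl12 at 1.94, Ccl4 at 3.11 and Ccl5 at 2.57 not called (0.068, 0.22 and 0.067). With those covariates, and 6 residual degrees of freedom, no chemokine was called in any of the 6 comparisons by limma, where 4 of the 10 in tumour against normal microglia and 0 to 3 in the others had an unadjusted p below 0.05.

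Other genes moved with the chemokines in this comparison, in which 4.66% of all genes were called higher and 12% lower. Of 14 interferon response genes 12 were higher in tumour microglia and none lower, with Isg15, a ubiquitin-like interferon product, at 3.36 ± 0.42 (limma adjusted p = 4.9e-05) and the chemokine Cxcl10 at 3.18 ± 0.42 (adjusted p = 8.3e-05). Of 12 NF-kappaB genes 4 were higher and 1 lower, led by the cytokine Tnf at 2.88 ± 0.50 (adjusted p = 0.00086). Of 16 immediate early genes, which respond within minutes to handling as well as to signals, 4 were higher: Ier3 at 2.27 ± 0.40 (adjusted p = 0.00086), Fosb, Atf3 and Ier5. Averaged over that list, normal microglia libraries ran from -0.88 to -0.40 and tumour microglia libraries from -0.74 to 0.71. The part of these gene groups in the chemokine differences was not tested.

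**Figure D2:**
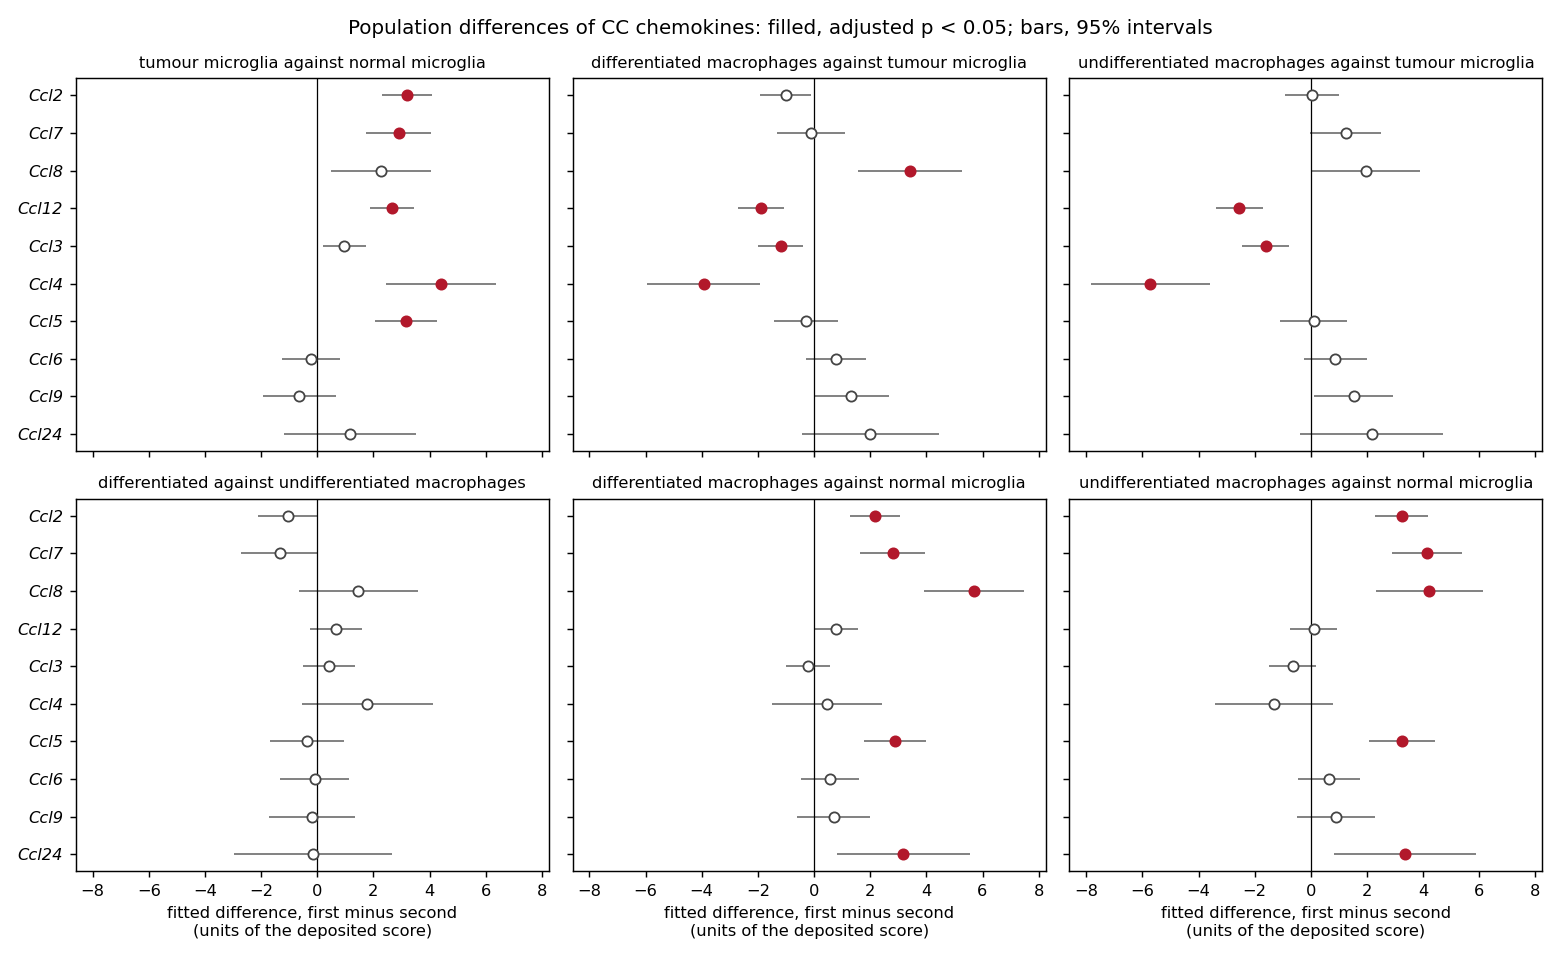
Fitted differences (x axis, units of the deposited score, first population minus second) of the 10 chemokines (y axis) in 6 comparisons; filled points have an adjusted p below 0.05, open points do not, and bars are 95% intervals. The 5 called genes of tumour against normal microglia lie between 2.66 and 4.40, Ccl12, Ccl3 and Ccl4 are below 0 in both comparisons of macrophages with tumour microglia, and differentiated against undifferentiated macrophages has no filled point.

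Macrophages against tumour microglia asked which chemokines separate the 2 kinds of tumour macrophage from resident microglia of tumours. These comparisons share the tumour microglia libraries and are given side by side. By the labels, no tumour microglia library shared both chimera kind and experiment with a macrophage library. In differentiated macrophages 1 of the 10 was higher, Ccl8, and 3 were lower, Ccl12, Ccl3 and Ccl4, against 37% of all genes called higher and 6.35% called lower. In undifferentiated macrophages none was higher and the 3 lower were again Ccl12, Ccl3 and Ccl4, against 36.7% and 5.19% of all genes. The median difference of the 10 was -0.19 in differentiated and 0.48 in undifferentiated macrophages, where over all genes it was 0.65 and 0.71. Subtracting each library's median, which takes out this shift, also called Ccl2 lower in differentiated macrophages, at -1.68 (limma adjusted p = 0.0076), where the fit as deposited gave -1.02 ± 0.44 (adjusted p = 0.066).

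The lower scores were present in both tumour experiments, each of which compared macrophages of one kind of chimera with tumour microglia of the other. For Ccl12 the deposited differences were -1.73 in experiment 3 and -1.76 in experiment 4 for differentiated macrophages, and -2.28 and -2.0 for undifferentiated macrophages. For Ccl4 they were -4.28 and -3.75, then -4.39 and -5.84. For Ccl3 they were -1.05 and -1.45, then -1.58 and -1.47. All of these lie below 0. The Ccl3 call in differentiated macrophages was lost without differentiated library 4 (adjusted p = 0.063), tumour microglia library 27 (0.15) or undifferentiated library 29 (0.1), and the Ccl4 call without tumour microglia library 27 (0.073, at -2.71).

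In the same comparisons, of 16 immediate early genes 0 were higher and 3 lower in differentiated macrophages, namely Jun at -1.43 ± 0.33 (limma adjusted p = 0.0013), Egr1 and Ier5. In undifferentiated macrophages 4 were higher, led by Ier3 at 1.59 ± 0.43 (adjusted p = 0.0052), and 2 lower, Egr1 and Jun. Of the 14 interferon response genes 1 was higher and 1 lower in differentiated macrophages, Cxcl9 and Ifit3, and 0 passed in undifferentiated macrophages. Their part in the chemokine differences was not tested.

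Ccl8, whose gene neighbours Ccl12 and whose protein binds Ccr8 in the mouse, was the 1 chemokine called higher in macrophages than in tumour microglia. Normal microglia ran from -3.97 to -1.68 (median -3.20) and tumour microglia from -3.17 to 0.080 (median -0.71). Differentiated macrophages ran from -0.67 to 5.18 (median 3.12) and undifferentiated macrophages from -1.74 to 3.49 (median 1.57). Differentiated macrophages exceeded tumour microglia by 3.42 ± 0.89 (limma adjusted p = 0.0039), and 7 of its 8 libraries lay above every tumour microglia library, library 12 being the exception. The deposited difference was 3.27 in experiment 3 and 3.46 in experiment 4. Undifferentiated macrophages did not pass, at 1.95 ± 0.93 (adjusted p = 0.096). Without differentiated library 28 the first call was lost (adjusted p = 0.056), and without libraries 12, 13 or 31 the second was made (adjusted p = 0.039, 0.016 and 0.041).

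Against normal microglia, Ccl8 gave the largest difference of the 10, 5.69 ± 0.86 in differentiated macrophages with no overlap (limma adjusted p = 8e-05). In undifferentiated macrophages it was 4.22 ± 0.92 (adjusted p = 0.0024), with library 13 inside the normal range. That call was lost without normal library 2 (adjusted p = 0.1). The rise of 2.27 ± 0.86 in tumour microglia did not pass (adjusted p = 0.072). The mean scores thus fell in the order differentiated, undifferentiated, tumour microglia, normal microglia, and no single step of that order passed the test on its own.

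Ccl24, an eotaxin, was spread widely within macrophages. Differentiated libraries ran from -2.29 to 3.95 (median 1.77) and undifferentiated libraries from -3.42 to 4.10 (median 1.99), against -3.63 to -0.78 (median -1.71) in normal and -2.48 to 1.68 (median -0.77) in tumour microglia. It was called higher than in normal microglia in both, at 3.18 ± 1.14 (limma adjusted p = 0.038) and 3.34 ± 1.22 (adjusted p = 0.045), with overlapping groups. These 2 calls were the least firm: they held in 17 and 13 of 32 fits that each left out 1 library, and neither held after library medians were subtracted (adjusted p = 0.083 and 0.11). Without normal library 2 the undifferentiated difference was 1.55 (adjusted p = 0.56). Tumour microglia did not differ from any population by the test.

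Ccl6 and Ccl9, myeloid chemokines of rodents of which Ccl9 acts through Ccr1, were called in none of the 6 comparisons. The population medians of Ccl6 ran only from -0.41 in tumour microglia to 0.36 in differentiated macrophages, and those of Ccl9 from -0.74 to 0.55. Population accounted for 14.3% and 20.5% of their variance, below the median of all genes. Their largest differences were against tumour microglia, where Ccl9 was at 1.33 ± 0.65 in differentiated (limma adjusted p = 0.1) and 1.52 ± 0.67 in undifferentiated macrophages (adjusted p = 0.073). The second passed in 8 of 32 fits that left out 1 library, for example without normal library 18 (adjusted p = 0.018).

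Each macrophage population against normal microglia gave 5 chemokines called higher and 0 lower: Ccl2, Ccl7, Ccl8, Ccl5 and Ccl24. The shares over all genes were 24.7% higher and 8.02% lower for differentiated and 21.8% and 6.18% for undifferentiated macrophages. The median difference of the 10 was 1.47 and 2.06, beside 0.53 and 0.57 over all genes. These comparisons share the normal libraries with each other and with tumour against normal microglia.

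Differentiated against undifferentiated macrophages gave 0 of 10 chemokines called with limma, every adjusted p being 1, and 0 at an unadjusted p below 0.05. Only 67.6% of this contrast lay outside the directions removed from the deposited values, against 85.4% to 96.7% in the other comparisons. The lack of calls therefore does not show that the 2 populations are alike. Over all genes 0.0114% were called in either direction, 2 genes, and 491 had an unadjusted p below 0.05. Both called genes were among the 12 blood-derived macrophage markers and were lower in differentiated macrophages. The widest intervals (95%) were -2.97 to 2.65 for Ccl24 and -0.54 to 4.11 for Ccl4, and the narrowest -0.51 to 1.35 for Ccl3 and -0.27 to 1.59 for Ccl12. The intervals of Ccl7, at -1.34 ± 0.67, and of Ccl2, at -1.05 ± 0.51, lay mostly below 0, the side of undifferentiated macrophages. Within experiments the sign of Ccl7 was not shared, at 0.18 in experiment 3 and -1.67 in experiment 4. Ccl2 stood at -0.37 and -0.75. All macrophages of experiment 3 came from WT recipients and all those of experiment 4 from Pep3 recipients.

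Recipient strain was compared only as a difference between strains in a population contrast, because the strain mean itself had been removed from the table. Within each population WT and Pep3 recipients were in different experiments, and in the tumour populations they also had donors of the opposite strain. Recipient strain, donor strain and experiment therefore cannot be told apart here. Of 60 such values none was called by limma, and 5 had an unadjusted p below 0.05 with adjusted p of 0.22 or more. In the fit without the covariates for the removed directions 0 had an unadjusted p below 0.05. The fitted gaps below include those covariates, the deposited differences do not, and the 2 differ in size. Over all genes the share called was 5.03% in tumour against normal microglia, 0.449% and 0.00569% in differentiated and undifferentiated macrophages against tumour microglia, 0% between the macrophages, and 0.0171% and 0.0227% in differentiated and undifferentiated macrophages against normal microglia. For Ccl12 the drop in differentiated macrophages was larger in Pep3 than in WT recipients, with deposited differences of -2.03 and -1.47 and a fitted gap of -2.56 ± 1.05 that was not called (limma adjusted p = 0.22). For Ccl9 the contrast of differentiated macrophages with normal microglia was 1.54 in Pep3 and -0.054 in WT mice, a fitted gap of 4.35 ± 1.89 (adjusted p = 0.55).

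**Figure D3:**
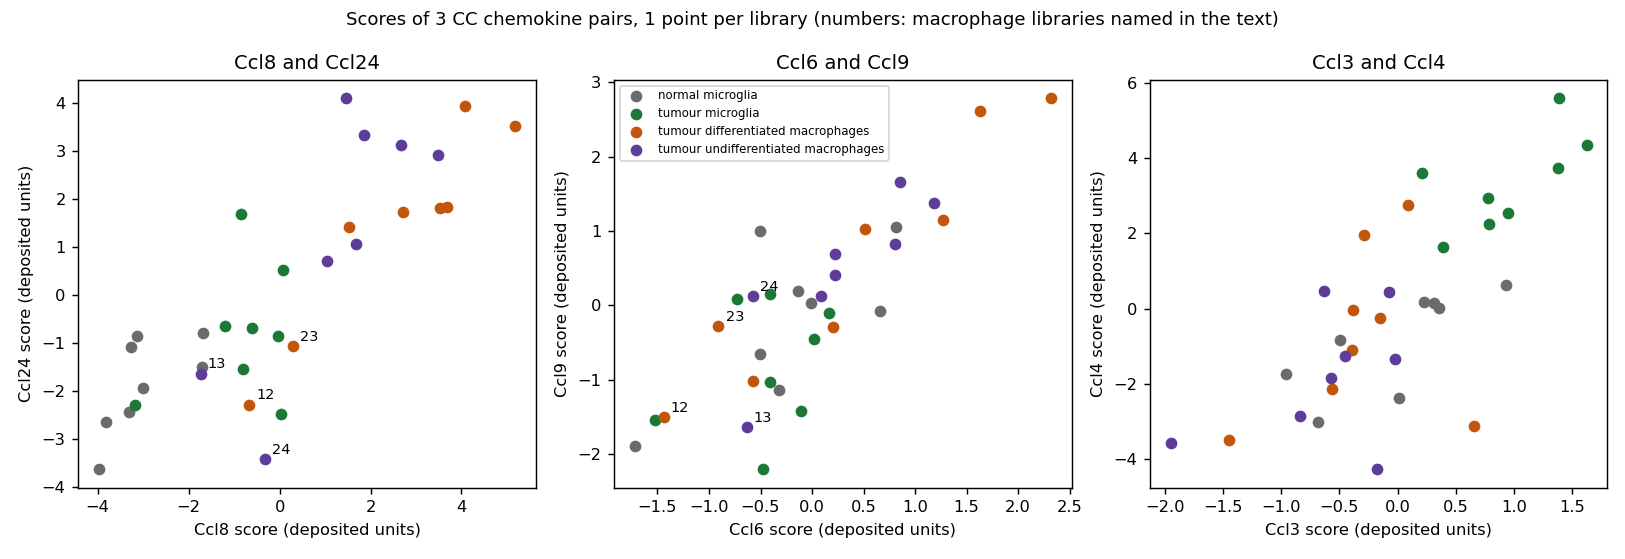
Scores (both axes, deposited units) of Ccl24 against Ccl8, Ccl9 against Ccl6 and Ccl4 against Ccl3, 1 point per library, coloured by population; numbers mark macrophage libraries 12, 13, 23 and 24. In the first panel these 4 libraries have Ccl24 at or below -1.07, away from the other 12 macrophage libraries.

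Some of the chemokines varied together between libraries of the same population and strain. With those means taken out, Pearson's r over 32 libraries was 0.80 for Ccl6 and Ccl9 and 0.76 for Ccl8 and Ccl24. Ccl8 also went with Ccl6 (0.64) and Ccl9 (0.57), and Ccl24 with Ccl6 (0.61), Ccl2 (0.47) and Ccl9 (0.46). For Ccl3 and Ccl4 it was 0.50, for Ccl12 and Ccl5 0.45, and Ccl3 ran against Ccl24 (-0.49) and Ccl8 (-0.43). Pairs that looked alike over the populations, such as Ccl2 and Ccl5 (0.74 over all libraries) or Ccl12 and Ccl4 (0.67), were at 0.07 and 0.20 once population and strain were taken out. These values describe libraries that share the removed directions and are not independent, so no test is given.

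The wide macrophage spread of Ccl8 and Ccl24 came from the same libraries. Differentiated libraries 12 and 23 scored -0.67 and 0.29 for Ccl8 and -2.29 and -1.07 for Ccl24, the lowest 2 of their population for both genes. Undifferentiated libraries 13 and 24 scored -1.74 and -0.32 for Ccl8 and -1.64 and -3.42 for Ccl24, again the lowest 2 for both. These 4 libraries come from both kinds of chimera and both tumour experiments, and they kept 77.6 to 88.6% of their own variation. Libraries 12 and 13 have adjacent numbers in the labels, the same kind of chimera and the same experiment, and so have 23 and 24; whether such a pair came from 1 mouse is not stated. Library 12 was also the lowest differentiated library for Ccl6 (-1.44), Ccl9 (-1.51) and Ccl12 (-0.85), and library 13 the lowest undifferentiated library for Ccl6 (-0.63) and Ccl9 (-1.64). They were noticed after their values were seen, so they are named as a description.

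The genes of the whole table most like each chemokine, by Pearson's r over the 32 libraries, differed between the groups. Ccl5 was followed most closely, by the surface glycoprotein Cd52 (0.94), the syndecan Sdc3 (0.92) and the receptor tyrosine kinase Axl (0.90). Ccl2 lay nearest to the class I heavy chain H2-K1 (0.91), the interferon-inducible Xaf1 (0.91) and the cytokine signalling suppressor Socs3 (0.88), and Ccl7 to Mnda (0.90), Sulf2 (0.86) and Ly6a (0.86). Ccl8 lay nearest to the mannose receptor Mrc1 (0.85), arginase Arg1 (0.85) and Sdc4 (0.85), and Ccl24 to Ccl8 (0.83), Arg1 (0.82) and Phactr2 (0.81).

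Ccl12 and Ccl4 had the same nearest gene, Cst7, a cystatin, at 0.85 and 0.79. Ccl12 was followed by Lgals3bp (0.83) and Caml (0.81), and Ccl4 by Lsm10 (0.79) and Siglec5 (0.77). Ccl3 was followed by Meis3 (0.78), Slc11a1 (0.76) and Cpsf3l (0.75). Ccl6 and Ccl9 were each other's nearest gene of 17586 (0.84), followed by Klf9 and Ermap (0.73 each) for Ccl6 and by Il4i1 (0.81) and Cd300lb (0.80) for Ccl9.

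Arg1 and Mrc1 belong to a list of 13 alternative activation genes, of which 7 were higher and 0 lower in each macrophage population against tumour microglia. Over all genes 37% were called higher in differentiated and 36.7% in undifferentiated macrophages. Arg1 was higher by 3.58 ± 0.87 in differentiated (limma adjusted p = 0.0023) and 3.35 ± 0.90 in undifferentiated macrophages (adjusted p = 0.0054), and Mrc1 by 3.38 ± 0.52 (adjusted p = 5e-05) and 3.31 ± 0.54 (adjusted p = 0.00011). Mrc1 is also a marker of border-associated macrophages, the macrophages of meninges and vessels, a list of which 5 of 7 measured genes were higher and 1, Stab1, lower in each macrophage population. Averaged over that list, tumour microglia libraries ran from -1.32 to -0.29, differentiated libraries from 0.55 to 1.51 and undifferentiated libraries from 0.15 to 1.36. The part of such cells in the Ccl8 and Ccl24 scores was not tested.

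**Figure D4:**
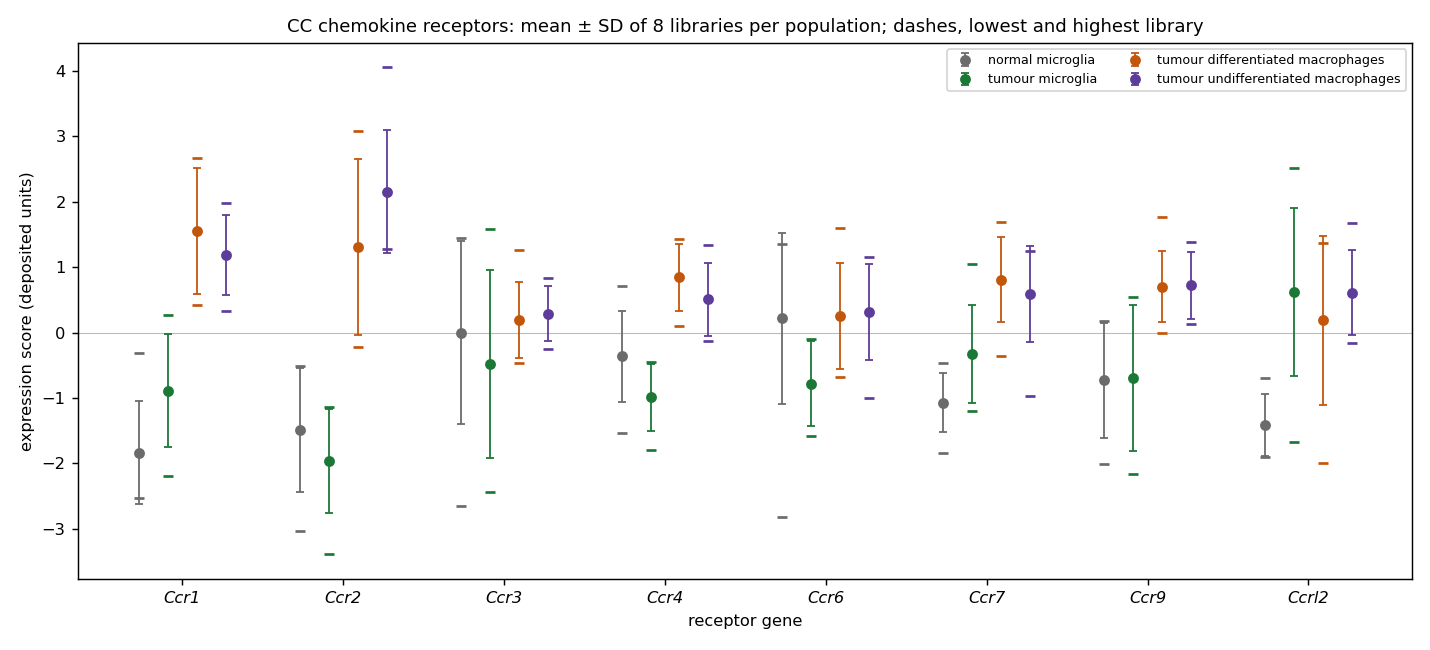
Scores (y axis, deposited units) of 8 CC chemokine receptor genes (x axis) in the 4 populations; points and bars are the mean ± SD of 8 libraries, dashes the lowest and highest library. Ccr1 and Ccr2 are above 0 on average in both macrophage populations and below 0 in both microglia populations.

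Of 11 CC chemokine receptor genes followed 8 were in the table, without Ccr8, Ccr10 and Ccr1l1. In tumour against normal microglia 1 of 8 was higher, Ccrl2, a receptor-like protein that binds chemokine-like ligands, at 1.88 ± 0.48 (limma adjusted p = 0.011), and 0 were lower. Over all genes 4.66% were called higher in that comparison. Against tumour microglia 5 were higher in each macrophage population and 0 lower. Over all genes 37% were called higher in differentiated and 36.7% in undifferentiated macrophages. Ccr2, the receptor of Ccl2, Ccl7 and Ccl12, ran from -3.39 to -1.14 (median -1.74) in tumour microglia, from -0.23 to 3.08 (median 1.24) in differentiated and from 1.27 to 4.05 (median 1.93) in undifferentiated macrophages. The macrophages did not overlap with tumour microglia, and the differences were 3.26 ± 0.48 (adjusted p = 3.7e-05) and 4.98 ± 0.50 (adjusted p = 2.1e-06). Ccr2 was itself on the list of blood-derived macrophage markers.

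Ccr1, a receptor for Ccl3, Ccl5 and Ccl9, was higher by 2.39 ± 0.51 (limma adjusted p = 8e-04) and 2.14 ± 0.53 (adjusted p = 0.003) in differentiated and undifferentiated macrophages than in tumour microglia. Ccr4 and Ccr9, receptors best known from T cells, were higher in both as well, at 1.65 to 1.97 and 1.56 to 1.83. Ccr7 passed only in differentiated macrophages (1.19 ± 0.44, adjusted p = 0.032) and Ccr6 only in undifferentiated macrophages (1.31 ± 0.43, adjusted p = 0.018), but neither differed between the macrophage populations by the test. Ccr3, the receptor for Ccl24, was called in no comparison.

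Against normal microglia, 6 of the 8 receptors were higher in differentiated macrophages and 5 in undifferentiated macrophages, and 0 were lower in either. Over all genes 24.7% and 21.8% were called higher. Of 3 atypical receptors, which take up chemokines without signalling for migration, Ccbp2 and Ccrl1 were measured. Ccrl1 was higher than in tumour microglia by 1.59 ± 0.57 in differentiated (limma adjusted p = 0.027) and 1.96 ± 0.59 in undifferentiated macrophages (adjusted p = 0.011), and Ccbp2 was not called. Against normal microglia Ccrl1 was not called in either macrophage population, at 0.17 ± 0.55 in differentiated macrophages (limma adjusted p = 0.83). Its mean score was -1.11 in tumour and 0.15 in normal microglia.

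Of 13 further CC chemokines 3 were in the table, Ccl22, Ccl25 and Ccl27a, and none was called in any comparison. The nearest to the threshold was Ccl22, a ligand of Ccr4, in differentiated macrophages against normal microglia at 1.20 ± 0.49 (limma adjusted p = 0.061). Its scores ran from -2.70 to 1.02 in normal microglia and from 0.049 to 1.31 in differentiated macrophages.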

How the data were processed

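RNA from 4 sorted populations was made into cDNA with the Clontech SMART-Seq v4 kit, per the labels' protocols, and the submitters' processing notes name FastQC, STAR 2.5.0a, RSEM 1.3.0 and genome build mm9. The deposited table, described by the authors as normalised, holds 1 signed score per gene and library, from -6.50 to 6.92; its scale is unstated, so no fold changes or abundances are given. The 32 libraries spanned 21 dimensions, leaving 11 sample directions without variation. limma 3.58.1 (R 4.3.3, robust empirical Bayes, two-sided) was fitted to all 17586 genes and 32 libraries with a mean per population and strain and the 11 directions as covariates (15 residual degrees of freedom), and tested on simulated data. Groups came from the labels. Alternatives were median centring, no covariates, other variance estimates or library weights, subsets of libraries, and leaving out each library. The members and gene lists were chosen with earlier results of these data known. All 10 members were named, and for each the 3 genes of highest correlation. From other lists up to 4 called genes with the largest differences were named. Promoters come from RefSeq (GRCm38.p6). Of the receptor list, 1 gene is not reported here.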

Additional observations from a re-analysis of the deposited data

Results flagged for a closer look

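In 3 of the 40 groups of 8 libraries checked (10 genes in 4 populations), 1 library lay far from the others, where chance gives about 1 in 20. Tumour microglia library 19 scored -3.17 for Ccl8, and the next lowest tumour microglia library scored -1.20. Undifferentiated macrophage library 5 scored -1.95 for Ccl3, next to -0.84. Undifferentiated macrophage library 13 scored -1.64 for Ccl9, next to 0.12.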

How the results depend on the processing

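The 22 called chemokine results kept their direction in all alternatives run. The count called in tumour against normal microglia (5) was 2 without the 9 libraries that kept under 50% of their variation and without the covariates, and 0 with the covariates, and leaving out 1 library gave 1 to 6. The first 2 of these settings called 133 and 0 genes in all. In the other comparisons the setting with the covariates also gave 0, where all libraries gave 4 (differentiated) and 3 (undifferentiated macrophages) against tumour microglia and 5 for each against normal microglia. That setting called only 0 to 4 genes in all in these comparisons. With only 6 residual degrees of freedom there, 1 to 3 chemokines had an unadjusted p below 0.05 in these comparisons. In tumour against normal microglia 4 had. Fitting only the 2 populations compared, with 3 residual degrees of freedom, gave 0 and 0 against tumour microglia (5 and 6 at an unadjusted p below 0.05), where 55 and 9 genes were called in all, and 2 and 2 against normal microglia, where 76 and 438 genes were called. Tumour against normal microglia gave 5 there, with 473 genes called. Leaving out 1 library gave 3 to 6, 3 to 5, 4 to 5 and 3 to 6 in that order; 3 came without normal library 2, and 5 for undifferentiated macrophages against tumour microglia without library 12, 13, 24 or 31. For tumour against normal microglia the genes called higher and lower were 820 and 2116, but 1358 and 1336 after median centring and 208 and 537 with library weights. Median centring gave 3486 and 3385 for differentiated and 2934 and 2862 for undifferentiated macrophages against tumour microglia, and 1843 and 2300, then 1373 and 1860, against normal microglia.

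Differences that had not passed changed sign in 97 of the alternative values, none past the threshold. Median centring put Ccl6 at 0.038 in tumour against normal microglia, Ccl2 at -0.69 and Ccl5 at -0.63 in undifferentiated macrophages against tumour microglia, and Ccl12 at -0.37 in undifferentiated macrophages against normal microglia. Without the covariates Ccl7 was at 0.12 in differentiated macrophages and Ccl2 at -0.25 in undifferentiated macrophages against tumour microglia, and Ccl6, Ccl9 and Ccl24 were at 0.10, 0.11 and 0.090 between the macrophage populations. Without the 9 libraries, with the covariates, Ccl3 was at -0.062 and Ccl24 at -0.25 in tumour against normal microglia, Ccl7 at 2.94 in differentiated and Ccl5 at -1.04 in undifferentiated macrophages against tumour microglia, Ccl7 at 0.37 between the macrophages, Ccl9 at -0.39 in differentiated and Ccl4 at 0.077 in undifferentiated macrophages against normal microglia. Without both, Ccl6 was at 0.26 in tumour against normal microglia, Ccl2 at -0.15 in undifferentiated macrophages against tumour microglia, Ccl6 at 0.073 and Ccl9 at 0.11 between the macrophages, Ccl4 at -0.30 in differentiated and Ccl12 at -0.032 in undifferentiated macrophages against normal microglia. With library weights Ccl7 was at 0.16 and Ccl5 at 0.14 in differentiated macrophages against tumour microglia, Ccl24 at 0.050 between the macrophages and Ccl12 at -0.046 in undifferentiated macrophages against normal microglia. With only the 2 populations compared, Ccl7 was at 0.34 in differentiated and Ccl5 at -0.81 in undifferentiated macrophages against tumour microglia, Ccl3 at -0.16 and Ccl24 at 0.71 between the macrophages, and Ccl12 at -0.67 in undifferentiated macrophages against normal microglia.

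Leaving out 1 library moved Ccl6 from -0.91 to 0.16, Ccl9 from -2.07 to 0.0063 and Ccl24 from -0.023 to 2.36 in tumour against normal microglia. Against tumour microglia it moved Ccl7 from -0.50 to 0.26 and Ccl5 from -0.96 to 0.36 in differentiated macrophages, and Ccl2 from -0.24 to 0.43 and Ccl5 from -0.33 to 0.68 in undifferentiated macrophages. Between the macrophages Ccl6 ran from -0.52 to 0.45, Ccl9 from -0.81 to 0.20 and Ccl24 from -1.29 to 0.73. Against normal microglia, in differentiated macrophages Ccl3 ran from -1.19 to 0.16, Ccl4 from -1.62 to 1.80 and Ccl9 from -0.49 to 1.44, and in undifferentiated macrophages Ccl12 from -0.43 to 0.39, Ccl3 from -1.31 to 0.12, Ccl4 from -2.47 to 0.089 and Ccl9 from -0.15 to 1.66. The cause of these changes was not tested, apart from the fewer libraries and degrees of freedom that some settings leave. Depth is unknown, so the precision of weakly expressed chemokines could not be judged. The labels give no replicate number to more than 1 library, but 8 differentiated macrophage libraries are each followed by an undifferentiated one of the same chimera kind and experiment, without saying that the 2 came from 1 mouse. A replicate block of these adjacent numbers, chosen after seeing the data, left 9 residual degrees of freedom and called 0 chemokines and 0 genes between the macrophages (470 genes and 0 chemokines at an unadjusted p below 0.05). Under the block Ccl6 was at 0.11 and Ccl24 at 0.23, and Ccl8, higher in the differentiated library in 8 of 8 pairs, was at 0.84 ± 0.71 (limma adjusted p = 1). Deviations from the group means correlated across all genes from -0.65 to 0.31 within pairs, and 6 of 16 libraries correlated best with their own neighbour.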
